A study of Mus musculus with 8 samples.

Results

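Chromatin accessibility was described at 52 genes that take fatty acids into skeletal muscle, burn them in mitochondria or store them as triglyceride. The genes were chosen by function, with earlier results of these data known. Their regions are all those whose gene name in the deposited table is one of the 52. They held 968 of the 489637 regions of the table, and 52 of its 27552 genes. For the order of the text the genes were put into roles, from uptake to lipogenesis.

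Circulating triglyceride is cut by lipoprotein lipase at the capillary wall, and the released fatty acids enter the fibre with the help of transporters and binding proteins. Acyl-CoA synthetases activate them, the carnitine shuttle carries them into the mitochondrion, and beta-oxidation shortens them to acetyl-CoA, while malonyl-CoA holds the shuttle back. Fatty acids that are not burned are esterified into droplets coated by perilipins, from which lipases release them again. BMAL1, a transcription factor of the circadian clock, binds with its partner CLOCK to E-boxes, whose letters are CACGTG.

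The series measured accessibility by ATAC-seq, in which a transposase cuts open DNA, in nuclei of the gastrocnemius, a calf muscle, from mice labelled as 6 months old. There were 4 libraries of mice given vehicle and 4 of mice given tamoxifen, the latter labelled iMSBmal1KO and called knockout below. All 8 carried the same genotype, Cre+:iMSBmal1 fl/fl, so the controls carried the Cre and the floxed Bmal1 as well, and tamoxifen and the loss of Bmal1 cannot be told apart. The labels name the knockout as inducible by tamoxifen only through the treatment, and they name neither the promoter that drives Cre nor the hour at which tissue was taken; each sample was made from 2 whole muscles. Nothing in the labels says that the libraries of a group came from separate mice, so the p-values measure the spread between these libraries.

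Depth ran from 4.31 to 29.5 M read equivalents, the deposited signal divided by what 1 read is worth in that library, with the vehicle library of replicate 4 the lowest, and 16.5% of that library's signal lay on the mitochondrial chromosome against 1.11% to 5.51% in the others. The regions of muscle fibre markers were open, with a median promoter signal per kb at the 94.9 percentile of genes with a tested promoter. The 7 fibre promoters that could be tested ranged from 23.2 to 99.2. Of the 9 genes of the fibre list, Myh2 and Myh7 had promoters that did not pass the filter on low signal. Adipocyte and endothelial markers had medians at the 9.88 (2 promoters) and 4.83 percentile (5 promoters). Fibro-adipogenic, smooth muscle and satellite cell markers had medians at 25.9 (5 promoters), 20.2 (2 promoters) and 15.7 (2 promoters). The 1 tested promoter of the nerve and Schwann list stood at 57.5. No promoter of the macrophage list passed the filter on low signal. Nuclei of all cell types were mixed, so fewer nuclei of a type and less open chromatin per nucleus cannot be told apart. The summed signal of Bmal1 (Arntl) was 2688, 2248, 2557 and 1942 in the vehicle libraries of replicates 1 to 4 and 3023, 3421, 3154 and 3315 in the knockout libraries (log2 change 0.46, limma adjusted p = 0.374). Regions were not matched to the deleted part of the gene, so this does not check the labels.

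The promoter sequences the results refer to are shown here, 5′ to 3′ on the strand of the gene, from RefSeq, build GRCm38.p6. In the table's coordinates all 52 genes overlapped the RefSeq gene of the same symbol, and 41 had an entry in the promoter table, with 52 windows of 300 bases (250 before a start and 50 after). The first set holds the 4 windows with an E-box, shown because BMAL1 binds this motif. Capitals mark the E-box, and up to 100 bases on each side are printed in lower case.
Lipe, chr7:25396037-25396237, minus strand: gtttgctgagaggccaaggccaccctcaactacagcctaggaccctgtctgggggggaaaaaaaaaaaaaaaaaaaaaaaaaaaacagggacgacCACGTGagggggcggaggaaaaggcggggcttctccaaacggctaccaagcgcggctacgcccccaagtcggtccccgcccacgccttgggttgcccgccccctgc
Mgll, chr6:88724268-88724411, plus strand: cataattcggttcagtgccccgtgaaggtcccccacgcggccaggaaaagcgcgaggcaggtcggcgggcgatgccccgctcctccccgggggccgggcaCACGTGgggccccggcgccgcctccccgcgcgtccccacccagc
Plin2, chr4:86670058-86670163, minus strand: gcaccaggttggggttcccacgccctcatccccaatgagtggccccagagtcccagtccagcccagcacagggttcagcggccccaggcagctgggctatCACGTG
Slc27a1, chr8:71570344-71570497, plus strand: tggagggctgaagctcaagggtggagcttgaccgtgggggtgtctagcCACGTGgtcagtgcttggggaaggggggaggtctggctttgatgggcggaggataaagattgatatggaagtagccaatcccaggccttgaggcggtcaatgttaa
These were 4 of 52 member windows (7.69%), and the same 6 letters, which read alike on both strands, stood in 7.15% of all 32851 windows of that length. The direct repeat of AGGTCA spaced by 1 base, to which PPAR receptors bind, was in no member window and in 0.04% of all. The letters TCAAGGTCA, which ERR receptors bind, were searched on both strands and found in 1 member window, at Acsl6, and in 0.42% of all.

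The second set holds the 250 bases before 3 starts at which the accessibility of Acsl1 and Hadhb is described below. Capitals mark the bases that lie within a region of the deposited table.
Acsl1, first start, chr8:46470787-46471036, plus strand: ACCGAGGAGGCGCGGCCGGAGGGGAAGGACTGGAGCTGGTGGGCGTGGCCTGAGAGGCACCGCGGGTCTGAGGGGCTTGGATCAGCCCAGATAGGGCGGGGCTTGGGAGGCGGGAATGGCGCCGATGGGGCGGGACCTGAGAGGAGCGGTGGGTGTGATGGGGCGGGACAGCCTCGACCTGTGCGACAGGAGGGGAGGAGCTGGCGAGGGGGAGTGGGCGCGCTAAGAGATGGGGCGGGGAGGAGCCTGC
Acsl1, second start, chr8:46490716-46490965, plus strand: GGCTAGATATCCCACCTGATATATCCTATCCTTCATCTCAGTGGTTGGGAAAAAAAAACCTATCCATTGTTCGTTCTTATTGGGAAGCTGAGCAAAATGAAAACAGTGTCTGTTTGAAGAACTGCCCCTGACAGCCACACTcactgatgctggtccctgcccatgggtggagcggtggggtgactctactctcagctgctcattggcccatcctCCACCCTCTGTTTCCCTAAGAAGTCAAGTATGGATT
Hadhb, chr5:30155003-30155252, plus strand: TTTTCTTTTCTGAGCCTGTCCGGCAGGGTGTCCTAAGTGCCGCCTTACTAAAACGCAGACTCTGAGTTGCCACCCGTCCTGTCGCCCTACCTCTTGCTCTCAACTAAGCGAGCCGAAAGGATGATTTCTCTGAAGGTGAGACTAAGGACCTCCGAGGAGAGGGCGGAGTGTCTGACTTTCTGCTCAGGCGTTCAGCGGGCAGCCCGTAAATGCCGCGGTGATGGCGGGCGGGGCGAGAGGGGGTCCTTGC
All 250 bases before the first start of Acsl1 and before the start of Hadhb lay in accessible regions, as did 177 of the 250 before the second start of Acsl1. The start of Hadha, on the other strand, lies 273 bp from that of Hadhb.

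At 375 of the 968 regions the signal was high enough to test, and these belonged to 51 of the 52 genes; Fabp4 had none. None of the 375 passed an adjusted p of 0.05 in the comparison of knockout with vehicle (limma-trend on log2 of the deposited signal plus 1, Benjamini-Hochberg adjustment over 124901 regions), where 0.0881% of all regions did. At an unadjusted p under 0.05, 21 member regions had the higher signal in the knockout libraries (5.60%, against 6.59% of all regions) and 9 the lower signal (2.40%, against 2.63%). The libraries of the groups did not overlap at 12 member regions with higher signal in knockout (3.20%, against 3.62% of all) and at 8 with lower signal (2.13%, against 1.87%). These shares lay near those of all regions. The median log2 change was 0.06 over the member regions and 0.12 over all regions, so relative to all regions the members stood at -0.06. With median-of-ratios, trimmed-mean or loess scaling, which centre the libraries on one another, the median of all regions was 0.01 or nearer 0 and that of the members -0.04, -0.05 and -0.05. With total reads scaling these medians were 0.07 and 0.01, and with the deposited scaling but without the vehicle library of replicate 4 they were 0.04 and -0.03. The split by direction moved with the scaling: with median-of-ratios, 13 member regions were higher at an unadjusted p under 0.05 (3.47%, against 4.87% of all regions) and 23 lower (6.13%, against 4.90%).

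Summed over all regions annotated to a gene, all 52 genes could be tested, and none passed an adjusted p of 0.05 (0.13% of 22224 genes did). At an unadjusted p under 0.05, 5 sums were higher in knockout (9.62%, against 7.61% of all genes) and 0 were lower (against 1.86%). With median-of-ratios scaling 3 were higher (against 5.19% of all genes) and 4 lower (against 4.92% of all genes). The groups did not overlap at 2 of the higher sums, those of Hadhb and Acot1 (3.85%, against 3.69% of all genes), and at 0 lower sums (against 1.24%). The 95% interval of the log2 change lay within 1 of 0 for all 52 genes and within a 1.5-fold change for 34 of them. The largest log2 changes were those of Hadhb and Plin5, both 0.54, and the lowest that of Fabp4, -0.31, a gene with low signal. Of the 52 sums 37 were above 0, against 66.6% of all genes, and 24 were above the median of all genes, 0.11. For 39 of the 52 genes the vehicle library of replicate 4 had the lowest vehicle sum, and the part of its depth in the changes was not tested beyond leaving it out. Without it 25 of the 37 sums stayed above 0, 27 of the 37 changes moved by over 1.5 times, and the median log2 change of the member sums was -0.01, and that of all genes 0.05.

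**Figure D1:**
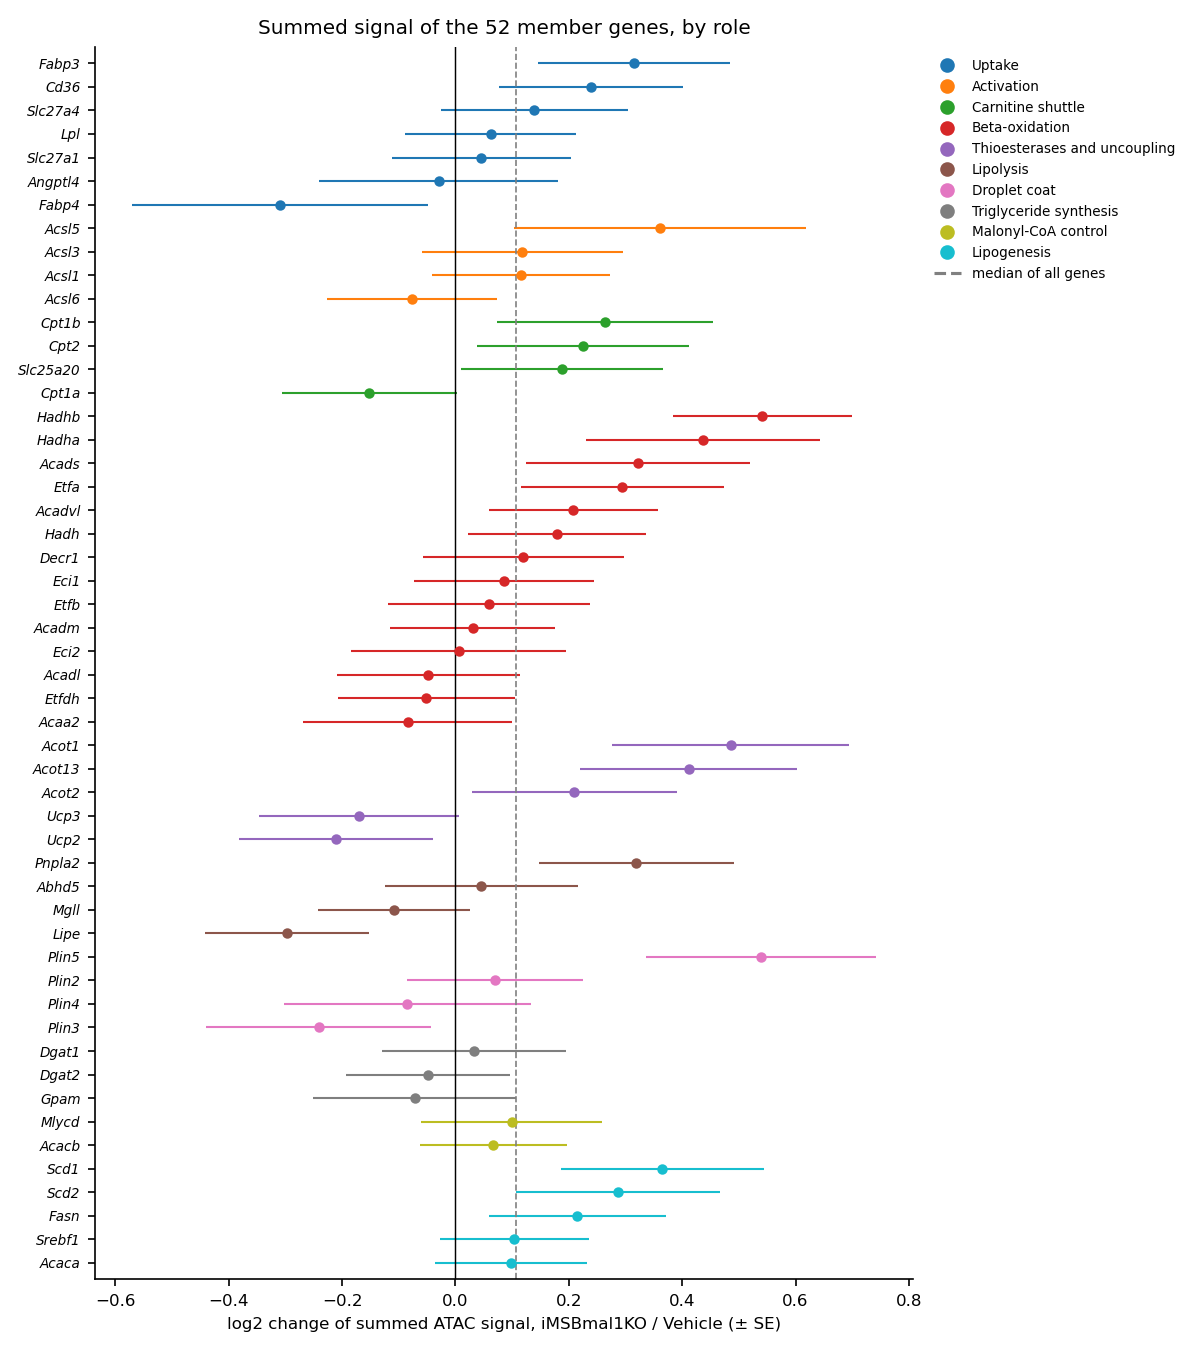
Log2 change of the summed ATAC signal, knockout over vehicle, for each of the 52 genes (point) with its standard error (bar), coloured by role; the dashed line is the median of all genes, 0.11. The points run from -0.31 (Fabp4) to 0.54 (Hadhb), and no sum passed an adjusted p of 0.05.

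Regions within 1000 bp of an annotated start were summed as the promoter signal of 51 genes; Acsl5, an acyl-CoA synthetase, had none that could be tested. None of the 51 passed an adjusted p of 0.05 (0.079% of 17720 genes did). At an unadjusted p under 0.05, 3 promoter sums were higher in knockout, those of Plin5, Acot1 and Hadhb (5.88%, against 8.67% of all genes), and 0 were lower (against 1.43%). With median-of-ratios scaling 1 was higher (1.96%, against 6.99% of all genes) and 3 were lower (5.88%, against 3.95%). The median log2 change was 0.12 for the members and 0.15 for all genes.

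Among the 7 genes of uptake, 36 regions were tested, with a median log2 change of 0.19. That is 0.07 above the median of all regions, and 0.02 below it without the vehicle library of replicate 4 (relative change -0.02). Fabp3, the fatty acid binding protein of heart and muscle, held the region of smallest p in this role, in intron 2 at chr4:130312656-130312780. The values there were 65.0, 59.6, 47.4 and 31.3 for vehicle replicates 1 to 4 and 94.9, 126, 90.7 and 104 for knockout. Every knockout library lay above every vehicle library (log2 change 1.06 ± 0.26 (SE), limma adjusted p = 0.178). The promoter of Fabp3 did not share this difference: its sum was 444, 423, 362 and 269 in vehicle and 382, 432, 397 and 415 in knockout, with overlapping groups (log2 change 0.14). Cd36, the main fatty acid translocase of muscle, had 73 regions of low signal. Their sum was 418, 485, 360.3 and 363 in vehicle and 541, 399, 538 and 443 in knockout, again overlapping (log2 change 0.24). A Cd36 region in a 5′ UTR exon, chr5:17881563-17881687, read 10.7, 14.4, 6.99 and 15.6 against 18.0, 16.7, 27.4 and 20.1, groups apart (log2 change 0.77, limma adjusted p = 0.528). Lpl, lipoprotein lipase, differed by 0.06 in its sum, and Angptl4, which inhibits that lipase, by -0.03, both within their standard errors of 0.15 and 0.21. Slc27a1 and Slc27a4, fatty acid transport proteins with acyl-CoA synthetase activity, had log2 changes of 0.05 and 0.14. The Slc27a1 region that covers the printed E-box window, chr8:71569594-71570699, read 954, 1016, 742 and 675 in vehicle and 779.9, 908, 796 and 908 in knockout. The groups overlapped there (log2 change 0.02 ± 0.18). Fabp4, the binding protein of adipocytes and capillary endothelium, had sums of 24.5, 26.7, 36.2 and 34.4 against 24.8, 25.1, 23.9 and 22.6. Its level per kb stood at the 19.0 percentile of genes with a tested sum.

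The 4 acyl-CoA synthetases of the activation role held 52 tested regions, with a median log2 change of 0.07, which is -0.05 relative to all regions. The median was -0.04 without the vehicle library of replicate 4 and -0.04 with median-of-ratios scaling. Acsl1, the main long-chain synthetase of muscle, differed along its length. The region over its first start, chr8:46470538-46471321, read 1933, 1607, 1713 and 872 in vehicle and 1578, 1536, 1474 and 1529 in knockout, so the groups overlapped (log2 change 0.06 ± 0.20). The region at its second start, chr8:46490930-46491151, read 112, 108, 97.2 and 65.7 against 176, 159.7, 128 and 179. There every knockout library was above every vehicle library (log2 change 0.76 ± 0.23 (SE), limma adjusted p = 0.362). In coding exon 5 a pair of adjoining regions did the same. The first, chr8:46512736-46512811, read 13.9, 9.25, 18.7 and 12.5 against 39.0, 32.6, 21.5 and 31.4 (log2 change 1.15 ± 0.32 (SE), limma adjusted p = 0.286). The second, which begins where the first ends, read 33.0, 20.5, 40.4 and 6.25 against 53.1, 64.4, 48.9 and 41.4. Adjoining regions are not independent, since the table cuts open stretches into pieces. The sum over the whole gene overlapped between groups (log2 change 0.12 ± 0.16, and -0.06 without vehicle replicate 4). For Acsl6 the region of smallest p lay at an annotated start, chr11:54345649-54345934, and read 39.4, 22.6, 23.5 and 31.3 in vehicle and 10.3, 15.9, 26.2 and 17.6 in knockout (log2 change -0.74, limma adjusted p = 0.524). Acsl3 had a log2 change of 0.12 in its sum and Acsl5 of 0.36, the latter on 6 regions of low signal with a standard error of 0.26; without vehicle replicate 4 they were -0.02 and 0.14.

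**Figure D2:**
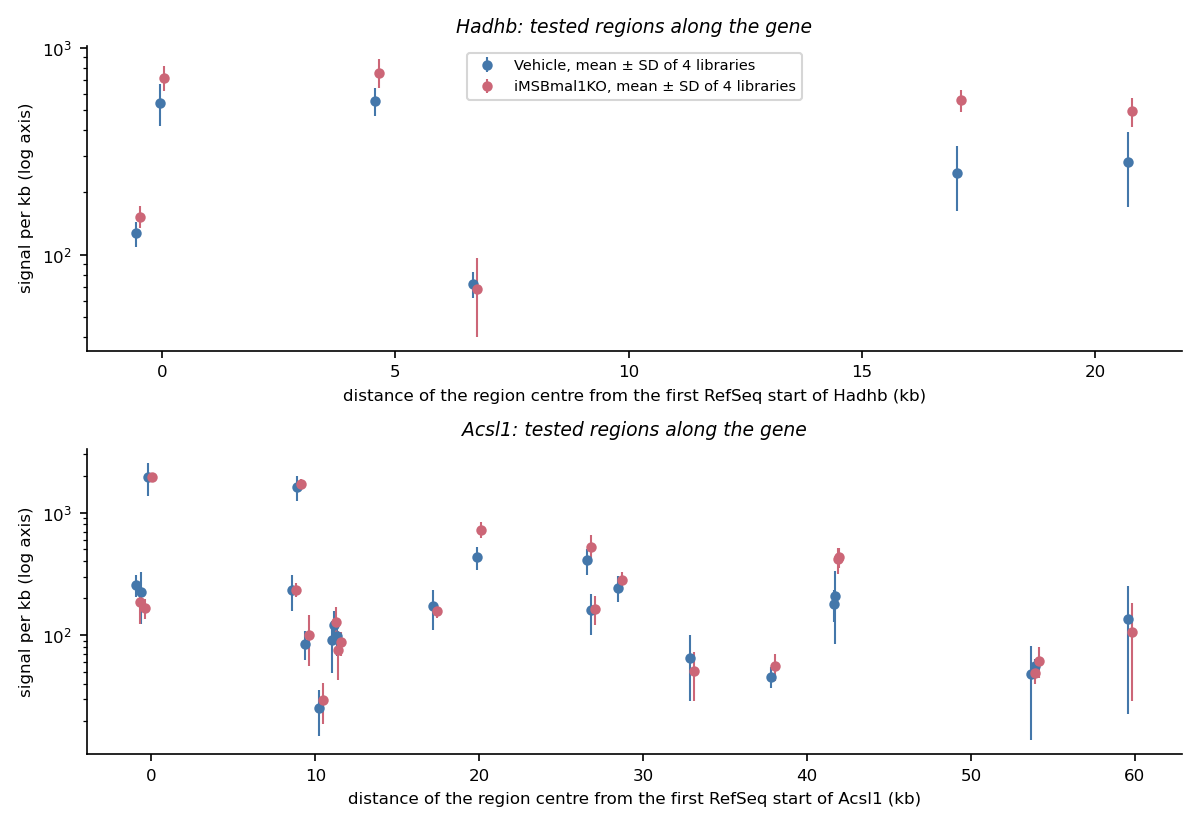
Mean signal per kb (log axis, bars SD of 4 libraries) of each tested region of Hadhb and of Acsl1 in vehicle and knockout, against the distance of the region centre from the first RefSeq start in kb. At Hadhb the groups were farthest apart at the end of the gene; at Acsl1 the first start was level and the region near 20 kb was higher in knockout.

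The carnitine shuttle had a negative median log2 change at the level of regions, -0.18 over 20 regions (-0.30 relative to all regions), and a positive one at the level of genes, 0.21 over 4 sums. The gene median was 0.02 without the vehicle library of replicate 4 (-0.04 relative to all genes) and 0.05 with loess scaling. Of these regions 14 lay at Cpt1a, the liver form of the outer membrane transferase. At Cpt1a a region near an internal start, chr19:3333468-3333577, read 40.2, 44.2, 42.3 and 43.8 in vehicle and 32.1, 34.3, 20.3 and 17.6 in knockout. Here every knockout library lay under every vehicle library (log2 change -0.74 ± 0.28 (SE), limma adjusted p = 0.490). The Cpt1a promoter sum overlapped, at 469, 497, 444 and 375 against 402, 427, 363 and 383 (log2 change -0.18 ± 0.18). Cpt1b, the muscle form of the same enzyme and the step at which malonyl-CoA acts, read 597, 519.9, 538 and 316 at its promoter in vehicle and 476, 686, 513 and 664 in knockout. The lowest value belonged to the shallow vehicle library, the other 7 libraries overlapped, and the log2 change was 0.27 ± 0.20. Cpt2, the inner membrane transferase, showed the same form, with 591, 640.1, 529 and 313 against 587, 654, 534 and 593 (log2 change 0.24). Slc25a20, the carrier that exchanges acylcarnitine for carnitine, had a log2 change of 0.21 at its promoter. Without vehicle replicate 4 the promoter changes of Cpt1b, Cpt2 and Slc25a20 were 0.07, 0.01 and 0.04.

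Beta-oxidation had a region median of 0.23 over 43 regions of 14 genes (0.10 relative to all regions), while its gene sums had a median of 0.10, as did all genes to within 0.01. Without the vehicle library of replicate 4 the gene median was -0.03, against 0.05 for all genes, and the region median 0.15 (0.12 relative to all regions). Hadha and Hadhb encode the alpha and beta subunits of the mitochondrial trifunctional protein, and Hadhb gave the smallest p of all 375 member regions. In its 3′ UTR exon, chr5:30172200-30172478, the signal was 98.1, 78.1, 57.2 and 43.8 in the vehicle libraries of replicates 1 to 4 and 136, 177, 159.8 and 146 in the knockout libraries. The lowest knockout library was above the highest vehicle library (log2 change 1.20 ± 0.25 (SE), limma adjusted p = 0.0804). This value missed the threshold as planned and passed it in 7 of 18 alternative settings, with an adjusted p of 0.0257 under median-of-ratios scaling and 0.0444 without the vehicle library of replicate 4. In the other 11 the adjusted p ran from 0.0536 to 0.319, with 0.311 without vehicle replicate 3, and 0.319, 0.311 and 0.235 without knockout replicates 2, 3 and 4. A further Hadhb region near the end of the gene, chr5:30175921-30176091, read 65.0, 60.6, 39.4 and 25.0 against 93.7, 72.6, 71.6 and 96.6, with the groups apart (log2 change 0.88, limma adjusted p = 0.417). The region over the shared start of Hadha and Hadhb, chr5:30154859-30155632, is 773 bp long and is annotated to Hadhb alone. It read 452, 529, 303 and 394 in vehicle and 488, 655, 511 and 558 in knockout, with overlapping groups (log2 change 0.42 ± 0.20). The Hadhb sum was 837, 862, 598 and 632 against 994, 1187, 958 and 1083, groups apart (log2 change 0.54 ± 0.16 (SE), limma adjusted p = 0.362). The Hadha sum, which lacks the shared start and is therefore low, was 66.1, 82.2, 96.6 and 65.7 against 133, 111, 79.9 and 99.1 (log2 change 0.44 ± 0.21 (SE), limma adjusted p = 0.524).

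The acyl-CoA dehydrogenases, which catalyse the first step of beta-oxidation for chains of falling length, had overlapping groups in every sum. Acadvl, for very long chains, had a log2 change of 0.21 ± 0.15 in its sum, and Acadl, for long chains, of -0.05 ± 0.16. Acadm, for medium chains, had the most open promoter of the role. A single region of 934 bp at chr3:153944184-153945118 read 2178, 1758, 1735 and 1451 in vehicle and 1643, 1952, 1663 and 1923 in knockout, and the groups overlapped (log2 change 0.02 ± 0.16). Acads, for short chains, had a log2 change of 0.32 ± 0.20. Hadh, the short-chain hydroxyacyl-CoA dehydrogenase, had a region past its end, chr3:131245858-131245941, that read 8.53, 4.11, 6.35 and 0 against 13.3, 15.9, 11.9 and 13.8. The groups were apart, but the shallow vehicle library held 0 reads there and the deepest library 31 (log2 change 1.75 ± 0.74, limma adjusted p = 0.510). Acaa2, the thiolase of the last step, had a log2 change of -0.08. The isomerases and the reductase that handle double bonds, Eci1, Eci2 and Decr1, had 0.09, 0.01 and 0.12. Etfa and Etfb, the electron transfer flavoprotein subunits, had 0.29 and 0.06, and Etfdh, which passes their electrons to ubiquinone, had -0.05. Each of these log2 changes of a gene sum was smaller than 2 of its standard errors, which ran from 0.16 to 0.19. Without vehicle replicate 4 the changes of Acads and Etfa were 0.10 and 0.11.

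**Figure D3:**
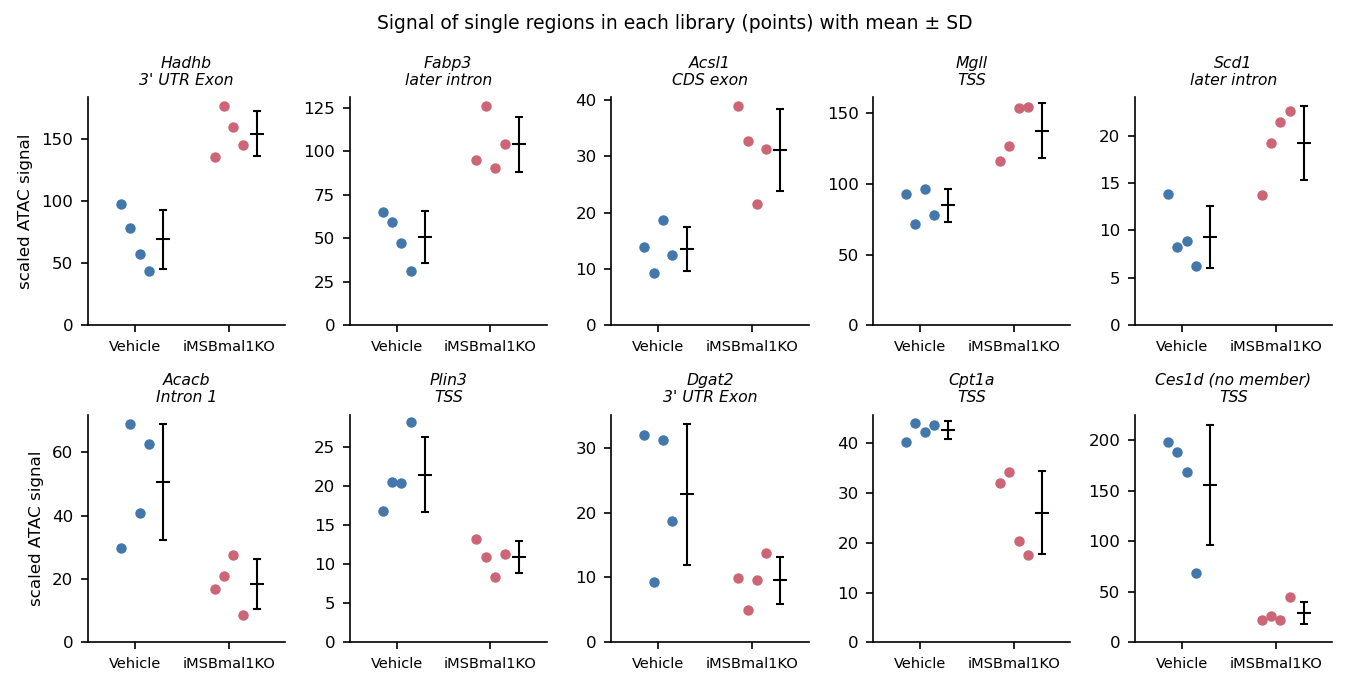
Deposited signal of single regions in each vehicle and knockout library (points), with the group mean and SD beside them, each panel on its own axis from 0. Upper row: the 5 members with the smallest p for higher signal in knockout; lower row: the 4 with the smallest p for lower signal, and the Ces1d start, which is outside the 52 genes and is the one panel that passed an adjusted p of 0.05.

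Thioesterases split acyl-CoA back into free acid, and uncoupling proteins are carriers of the inner mitochondrial membrane. The thioesterase sums were higher in knockout and the uncoupling protein sums lower, none past the threshold. Acot1, the cytosolic thioesterase, had a sum of 38.4, 51.4, 44.5 and 43.8 in vehicle and 55.2, 71.9, 59.6 and 64.0 in knockout, with the groups apart (log2 change 0.49 ± 0.21 (SE), limma adjusted p = 0.511). At its promoter the sum was 24.5, 39.0, 35.6 and 25.0 against 43.2, 54.4, 44.1 and 43.9 (log2 change 0.59, limma adjusted p = 0.475). These are low signals, at the 4.11 percentile of tested promoters. Acot1 and its mitochondrial neighbour Acot2 are near-identical copies between which reads can be misplaced. Acot2 had a log2 change of 0.21 in its sum. Acot13, a thioesterase of mitochondria, read 504, 559, 456 and 278 against 659, 623, 512 and 534, with overlapping groups (log2 change 0.41 ± 0.19 (SE), limma adjusted p = 0.520). Without vehicle replicate 4, its lowest library, the change was 0.20. Ucp3, the uncoupling protein of muscle, read 945, 931, 672 and 672 against 865, 746, 529.6 and 725 (log2 change -0.17). Ucp2, its broadly expressed relative, read 221, 229, 239.6 and 275 against 235, 252, 186 and 168 (log2 change -0.21). Its region of smallest p, near a start at chr7:100495556-100495704, read 32.0, 14.4, 19.1 and 25.0 against 7.70, 18.4, 8.35 and 13.8 (log2 change -0.88, limma adjusted p = 0.506).

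The lipases of droplet breakdown differed in the sign of their changes. Pnpla2, adipose triglyceride lipase, which makes the first cut, had a promoter sum of 859, 952, 1048 and 622 in vehicle and 937, 1325, 997 and 1045 in knockout (log2 change 0.32, and 0.17 without vehicle replicate 4). Its intron 1 region, chr7:141455777-141455891, read 58.6, 74.0, 51.5 and 28.1 against 71.5, 102, 99.6 and 72.8 (log2 change 0.75, limma adjusted p = 0.478). Lipe, hormone-sensitive lipase, which makes the next cut, had the lowest log2 change after Fabp4. Its sum was 1007, 990.5, 965 and 809.8 in vehicle and 755, 842, 669 and 803 in knockout, and 1 knockout library overlapped with the lowest vehicle library, the shallow one (log2 change -0.30 ± 0.15 (SE), limma adjusted p = 0.529). Most of it came from 1 region at chr7:25390044-25390609, with 867, 838, 819 and 659.7 against 618, 706, 549 and 667. A region before its other start, which covers the printed E-box, chr7:25396089-25396327, read 78.9, 107, 79.2 and 62.5 against 89.0, 91.2, 64.4 and 85.6 (log2 change 0.02 ± 0.24). That start itself lies in a neighbouring region of higher signal, which is not part of the Lipe sum. Together these regions had a mean of 569 in vehicle and 598 in knockout. Mgll, monoacylglycerol lipase, which makes the last cut, had regions in both directions among those of smallest p. Its promoter sum was 211, 179, 215 and 175 in vehicle and 232, 260.1, 224 and 263 in knockout, groups apart (log2 change 0.33 ± 0.18 (SE), limma adjusted p = 0.518), and in a 500 bp window the change was -0.04. Its gene sum was 1243, 1227, 1223 and 1151 against 1058, 1149, 1065 and 1224, with overlap (log2 change -0.11). Near an internal start, chr6:88821989-88822233, the signal was 92.7, 71.9, 96.6 and 78.2 in vehicle and 116, 127, 154 and 154 in knockout, groups apart (log2 change 0.69, limma adjusted p = 0.392). In intron 2, chr6:88749728-88749947, it was 14.9, 13.4, 28.6 and 21.9 against 14.1, 10.9, 11.9 and 7.53, with overlap (log2 change -0.74). At the Mgll region that overlaps the printed E-box window, chr6:88724287-88724400, the values were 24.5, 11.3, 22.2 and 6.25 against 22.3, 20.1, 13.1 and 27.6, a low signal with overlapping groups. Abhd5, the co-activator of Pnpla2, had a log2 change of 0.05 in its sum.

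Of the 4 droplet coat genes, Plin5 stood at one end and Plin3 at the other. Plin5, the perilipin that ties droplets to mitochondria in oxidative tissue, had 3 regions, all at its promoter. Their sum was 99.1, 135, 137 and 93.8 in vehicle and 116, 207, 187 and 172 in knockout (log2 change 0.54 ± 0.21 (SE)). The lowest knockout library lay within the vehicle range and the other 3 above it, and the adjusted p of limma was 0.468. The region of smallest p among them, chr17:56117638-56117695, read 16.0, 20.5, 28.6 and 12.5 against 24.4, 45.2, 35.8 and 28.9. Plin3, a perilipin that is also free in the cytosol, had a promoter sum of 1108, 892, 1506 and 797 against 567, 1090.5, 948 and 803 (log2 change -0.33 ± 0.21). One of its regions, chr17:56290861-56290970, read 16.8, 20.5, 20.3 and 28.1 against 13.3, 10.9, 8.35 and 11.3, every knockout library under every vehicle library (log2 change -0.90, limma adjusted p = 0.466). Plin4, abundant in fibres and adipocytes, had the most open promoter of all 51 at 1912 per kb in the vehicle mean. Its promoter sum was 2836, 2635, 3194 and 1657 against 1563, 2676, 2554 and 2190.2, and in each group 1 library lay far below the rest, vehicle replicate 4 and knockout replicate 1 (log2 change -0.19 ± 0.20). A coding exon 3 region of Plin4, chr17:56109419-56109489, read 28.8, 42.1, 45.1 and 25.0 against 21.8, 40.1, 16.7 and 11.3 (log2 change -0.73). Plin2, the coat protein of most lipid-laden cells, has its E-box at the start itself, with the first of the 6 bases 4 bases before it. The region over that start, chr4:86669929-86670246, read 216, 212, 205 and 209 in vehicle and 181, 208, 183 and 223 in knockout, with overlapping groups (log2 change -0.09 ± 0.19).

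Triglyceride synthesis had a region median of -0.17 over 26 regions (-0.29 relative to all regions), while all 3 promoter sums were above 0 under the deposited scaling. The promoter median of 0.12 lay below the 0.15 of all genes, and the median of the 3 gene sums was -0.05 (-0.15 relative to all genes). The region median was 0.01 without vehicle replicate 1, and -0.03, -0.05 and -0.06 without knockout replicates 1, 2 and 3. Gpam, which adds the first acyl chain to glycerol phosphate, had a promoter sum of 155, 166, 147 and 87.5 against 178, 195, 129 and 177 (log2 change 0.31). Dgat1 and Dgat2, which add the last chain, had promoter log2 changes of 0.03 and 0.12. Without vehicle replicate 4 the promoter changes of Gpam, Dgat1 and Dgat2 were 0.11, -0.09 and -0.01. A Dgat2 3′ UTR region, chr7:99163312-99163375, read 32.0, 9.25, 31.1 and 18.8 in vehicle and 9.84, 5.02, 9.54 and 13.8 in knockout, with overlap because 1 vehicle library was as low as the knockout libraries (log2 change -1.10, limma adjusted p = 0.478).

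The enzymes that set malonyl-CoA were level as whole genes. Acacb, the acetyl-CoA carboxylase that makes it at the mitochondrial surface, held 40 of the tested regions, the most of any member, and its sum had a log2 change of 0.07 ± 0.13. Mlycd, the decarboxylase that removes it, had 0.10 ± 0.16. Within Acacb lay the region of smallest p with lower signal in knockout, in intron 1 at chr5:114173115-114173256. It read 29.8, 68.8, 40.7 and 62.5 in vehicle and 16.7, 20.9, 27.4 and 8.78 in knockout. The groups did not overlap, although the vehicle libraries ran from 29.8 to 68.8 (log2 change -1.43 ± 0.35 (SE), limma adjusted p = 0.184). A second Acacb region, in coding exon 11 at chr5:114196580-114196730, read 14.9, 12.3, 13.3 and 21.9 against 8.13, 5.02, 9.54 and 7.53, also with the groups apart (log2 change -0.95, limma adjusted p = 0.503).

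In lipogenesis all 5 gene sums were above 0 under the deposited scaling, with a median of 0.21. That median stayed above the median of all genes under each scaling tried and without the vehicle library of replicate 4. The other levels lay near all features. The median over 41 tested regions was 0.13 (0.01 relative to all regions), and over the 5 promoter sums 0.17 (0.02 relative to all genes). Scd1, the stearoyl-CoA desaturase, had a sum of 106, 147, 117 and 134 in vehicle and 185, 177, 131 and 157 in knockout, with overlap (log2 change 0.36 ± 0.18 (SE), limma adjusted p = 0.530). Its intron 4 region, chr19:44400651-44400772, read 13.9, 8.22, 8.90 and 6.25 against 13.7, 19.2, 21.5 and 22.6 (log2 change 1.00, limma adjusted p = 0.456). Scd2, a second desaturase, had a log2 change of 0.29 and Fasn, fatty acid synthase, of 0.21. Acaca, the cytosolic acetyl-CoA carboxylase, had 0.10. Srebf1, the transcription factor that drives these genes, had a small difference at a start region, chr11:60210376-60210747. It read 413, 376, 401 and 372 in vehicle and 445, 489, 413 and 479 in knockout (log2 change 0.22 ± 0.18, limma adjusted p = 0.678). The highest vehicle and the lowest knockout value there both rounded to 413, and the whole sum of Srebf1 overlapped between groups. Its promoter sum was 941, 951, 805 and 947 in vehicle and 954, 1079, 998 and 1042 in knockout. The groups there were narrowly apart (log2 change 0.16 ± 0.16, limma adjusted p = 0.691).

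Oxidation genes (carnitine shuttle and beta-oxidation, 18 genes, 63 tested regions) were set beside storage genes (droplet coat, triglyceride synthesis and lipogenesis, 12 genes, 110 tested regions). The median log2 change of a region was 0.17 for oxidation and 0.04 for storage, against 0.12 for all regions. Without the vehicle library of replicate 4 these medians were 0.02, -0.08 and 0.04, so that oxidation lay below all regions. Within each library the mean log2 signal of oxidation regions exceeded that of storage regions, by 0.37, 0.37, 0.03 and 0.20 for the vehicle libraries of replicates 1 to 4 and by 0.56, 0.28, 0.25 and 0.34 for the knockout libraries, so the groups overlapped. At p under 0.05 unadjusted, 6 oxidation regions were higher (9.52%) and 1 lower (1.59%), and 5 storage regions were higher (4.55%) and 2 lower (1.82%), against 6.59% and 2.63% of all regions. The medians over gene sums were 0.15 and 0.08, and -0.003 and 0.01 without vehicle replicate 4. Over promoter sums the order was the other way, 0.11 for oxidation and 0.14 for storage, and -0.01 and 0.07 without that library. No test over the lists was made.

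By gene section the sets were level at the starts: the median was 0.10 over 30 oxidation regions and 0.10 over 48 storage regions, both below the 0.17 of all start regions. In 5′ UTR exons the medians were -0.17 (11 regions) and -0.12 (8 regions), against 0.08 for all. The sets parted in intron 1, with 0.46 over 6 oxidation regions and 0.01 over 6 storage regions, and in later introns, with 0.22 over 7 and 0.07 over 11. Past the gene end (TTS) they were 0.49 over 6 regions and -0.03 over 8. In 3′ UTR exons oxidation had a single tested region, the one of Hadhb, and the 5 storage regions had a median of -0.31. In coding exons the 2 oxidation regions had a median of -0.11 and the 24 of storage -0.06. The storage median in coding exons ran from -0.20 without vehicle replicate 4 to 0.24 without knockout replicate 1. Without vehicle replicate 4 the medians of oxidation and storage were -0.04 and 0.02 at the starts, 0.28 and -0.09 in intron 1, and 0.18 and -0.08 in later introns. Outside the starts the sets therefore rest on few regions of few genes.

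**Figure D4:**
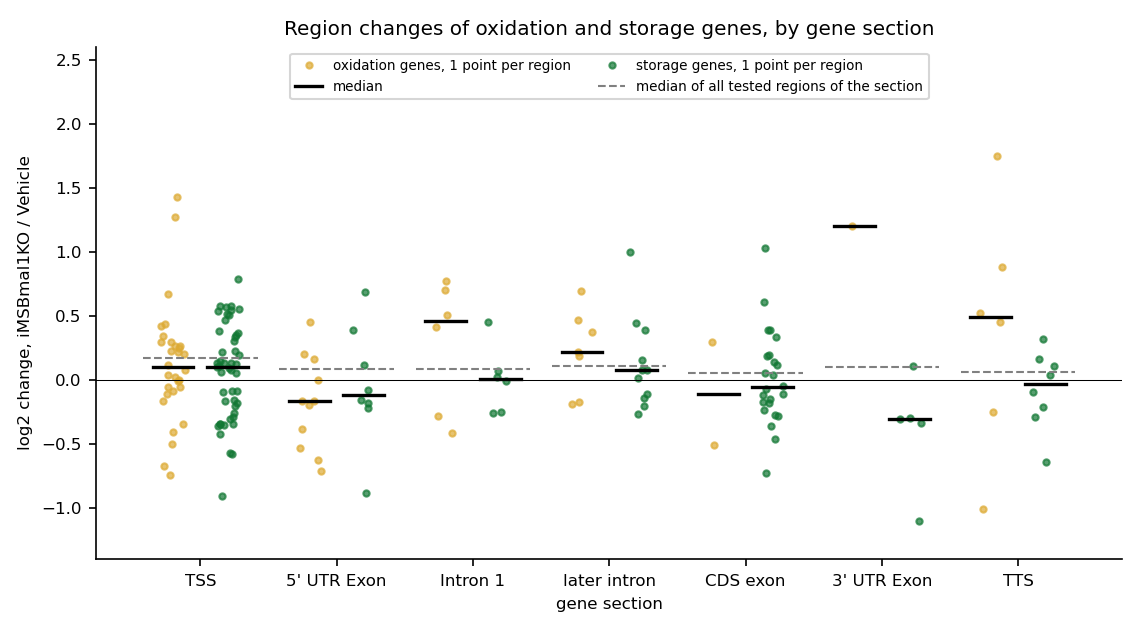
Log2 change of each tested region, knockout over vehicle, for oxidation and storage genes (1 point per region) by gene section, with the median of each set (black) and the median of all tested regions of the section (dashed). The sets share a median of 0.10 at the starts and differ most where there are fewest points.

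The level of promoter accessibility differed far more between the genes than between the groups. Per kb of region, the members had a median at the 76.3 percentile of genes with a tested promoter. Of the 51 members, 42 lay above the median of those genes. Plin4 was the highest and Acot1 the lowest, at 1912 and 37.4 signal per kb in the vehicle mean. Plin4 and Acadm, with 1906, did not differ beyond the spread of their libraries, and Etfdh followed with 1523. In each role the highest promoter was that of Slc27a4 in uptake (737), Acsl1 in activation (860.4), Cpt1b in the carnitine shuttle (1026), Ucp3 among thioesterases and uncoupling proteins (777) and Lipe in lipolysis (732). In the remaining roles it was Dgat2 in triglyceride synthesis (842), Mlycd in malonyl-CoA control (799.6) and Acaca in lipogenesis (599). Some forms known from muscle were above a relative per kb: Cpt1b had 1026 against 254 for Cpt1a, Ucp3 777 against 118 for Ucp2, and Fabp3 438 against 54.3 for Fabp4. In the library values per kb these pairs did not overlap in either group. Before division by length, the promoter sums of Cpt1b and Cpt1a had vehicle means of 493 and 446, and their vehicle libraries overlapped. The regions summed covered 0.48 kb at Cpt1b and 1.754 kb at Cpt1a. Other relatives did not part in this way. Acacb had 602 per kb against 599 for Acaca, and Plin5 had 367, below Plin3 with 583. Cd36, although a main transporter of muscle, had a promoter at the 26.7 percentile.

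**Figure D5:**
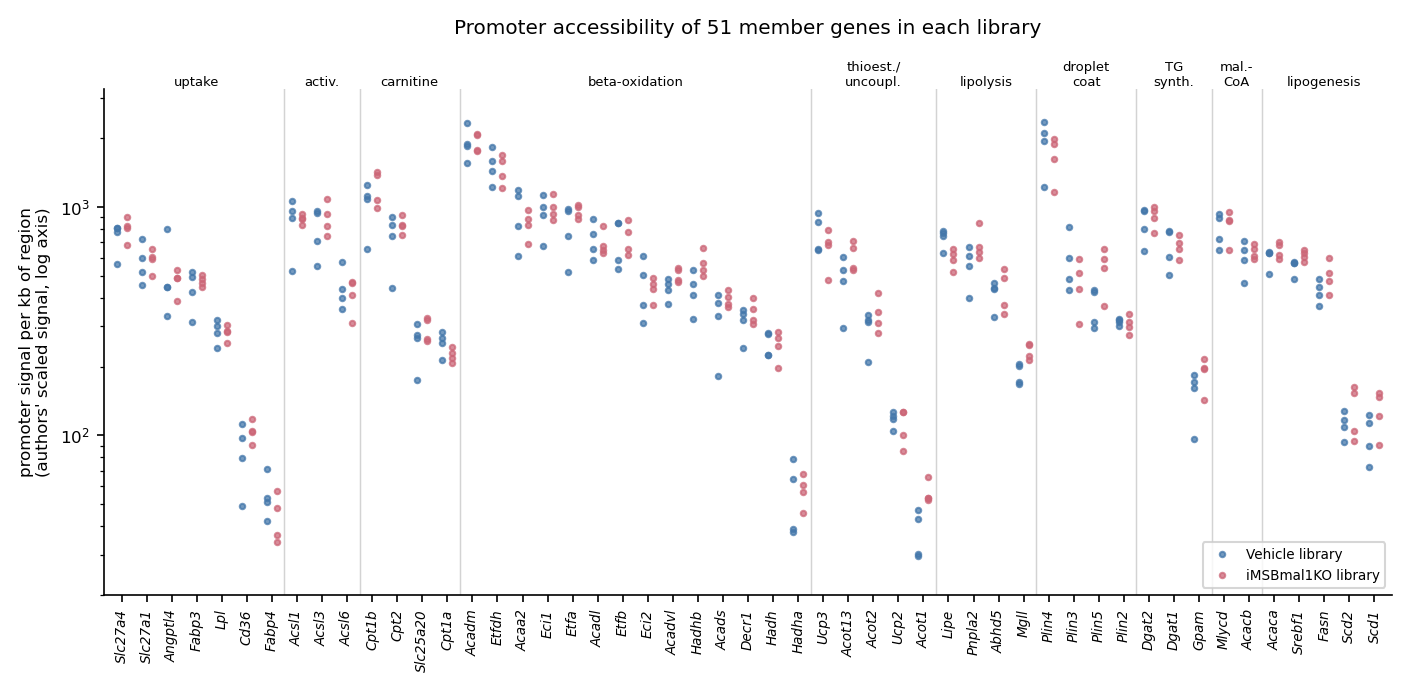
Promoter signal per kb of region (log axis) of 51 genes in each of the 4 vehicle and 4 knockout libraries, ordered by role and then by level. The genes span from 37.4 (Acot1) to 1912 (Plin4) in the vehicle mean, and the clouds of the groups lie over each other at most genes.

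Other genes of the pathway were taken from lists, which were chosen with earlier results of these data known. Of 17 genes of peroxisomal oxidation, 17 of other mitochondrial oxidation, 11 of other uptake, 20 of other synthesis and 16 regulators such as PPAR and ERR receptors, no region, gene sum or promoter sum passed an adjusted p of 0.05. Of 24 further storage genes, 184 regions were tested and 1 passed, where 0.0881% of all regions did. It lay at a start of Ces1d, a carboxylesterase that hydrolyses triglyceride, at chr8:93197803-93198134. The signal was 198, 189, 168 and 68.8 in the vehicle libraries of replicates 1 to 4 and 22.3, 25.9, 22.7 and 45.2 in the knockout libraries. Every knockout library lay below every vehicle library (log2 change -2.34 ± 0.33 (SE), limma adjusted p = 0.00467). The sum over its 15 regions passed as well, at 269.7, 269, 279 and 147 against 85.2, 81.1, 65.6 and 96.6 (log2 change -1.51 ± 0.21 (SE), limma adjusted p = 0.00299). Ces1d passed the threshold in all settings tried, and the lipases among the 52 genes, Pnpla2, Lipe and Mgll, in none.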

How the data were processed

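ATAC-seq was measured in 4 vehicle and 4 iMSBmal1KO libraries of mouse gastrocnemius. The authors deposited 1 table of regions with a signal per library, which is not whole and behaves as reads divided by a factor per library: within 0.02 reads, a single step divided 98.3% to 99.8% of each library's values above 0. Partek, Bowtie2, MACS2 and DESeq2 and the builds mm10 and GRCm39 stand in the submitters' processing notes; aligner settings, removal of duplicates and the shift of reads for the transposase are not given in the sources used here. The regions' coordinates are printed as listed, counted from 1, and matched RefSeq genes of GRCm38.p6.

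The deposited signal was tested as log2(signal + 1) with limma-trend and robust empirical Bayes (limma 3.58.1, R 4.3.3), group as the only term, all 8 libraries, and Benjamini-Hochberg adjustment over all regions, gene sums or promoter sums. Fold changes are on that scale, which understates the change of low regions. The filter kept a region with 15 reads in all and 0.762 read equivalents per M in 4 or more libraries. Promoters were regions within 1000 bp of an annotated start. Depth is in read equivalents (signal divided by the step), and counting precision was not used in the tests.

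The members and lists were chosen with earlier results of these data known. Named with values per library were the 8 member regions of smallest p in each direction, 1 per gene, the 6 genes of smallest p in each direction by gene sum and by promoter sum, the highest and lowest promoter and the highest of each role, and genes of other lists past the threshold. Other regions were named after their values were seen: those at the starts of Acsl1, Hadhb, Lipe, Mgll, Plin2, Slc27a1, Srebf1 and Acadm, the second regions of Acsl1, Hadhb and Acacb, and that of Cd36. Replicate numbers were not taken to pair the libraries in the main tests. Alternatives were other pseudocounts, filters, scalings, promoter windows and thresholds, limma-voom, the replicate block and leaving out each library. Plots used matplotlib 3.10.9, tables pandas 2.3.3 under Python 3.11.15.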

Additional observations from a re-analysis of the deposited data

Results flagged for a closer look

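Among 138 sets of 4 libraries (the gene sums of the 52 members, the named member regions and the Ces1d region, in each group), 4 held a library that stood far from the other 3; chance gives about 1 in 20, or 6.9 here. The Abhd5 sum was 439 in vehicle replicate 3, below 588 to 612 in the other vehicle libraries. Dgat2 summed to 1062 in knockout replicate 1, below 1289.5 to 1325 in the rest of that group. The Slc27a4 sum was 285 in vehicle replicate 4, the library of least depth, below 392 to 412. At the Ces1d region knockout replicate 4 read 45.2, above 22.3 to 25.9 in the other knockout libraries and still below all vehicle libraries.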

How the results depend on the processing

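No member gene sum or promoter sum passed the adjusted p of 0.05 under any setting, while 5 and 3 had an unadjusted p under 0.05. Member regions past it numbered 0, and 1, the Hadhb 3′ UTR region, with a pseudocount of 5, no filter, median-of-ratios, trimmed-mean or loess scaling or limma-voom (adjusted p from 0.0186 to 0.0494 over these), and 0 to 1 on leaving out each library (1 without vehicle replicate 4). Of 43 named changes 41 kept direction and side of the threshold in every setting run; besides Hadhb, the promoter sum of Mgll turned to -0.044 in a 500 bp window. Counts over all regions were 110, and 195 without the filter, 279 with median-of-ratios, 289 with trimmed-mean, 342 with loess scaling and with limma-voom, 36 at a threshold of 0.01, and from 32 to 281 on leaving out each library (32 and 41 without vehicle replicates 1 and 3, 43, 39 and 57 without knockout replicates 2, 3 and 4, and 281 without vehicle replicate 4). All gene sums gave 29, and 51, 53 and 65 under those scalings, 7 at 0.01, and from 7 to 107 on leaving out each library (9, 107 and 8 without vehicle replicates 1, 2 and 3, and 17, 7, 9 and 11 without knockout replicates 1 to 4). Promoter sums gave 14, and 22 with the filter doubled, 27 with total reads, 34, 37 and 36 under those scalings, 32 with limma-voom, 24 in a 2000 bp window, 8 at 0.01, and from 7 to 272 on leaving out each library (272, 8 and 36 without vehicle replicates 2, 3 and 4, and 7 without knockout replicate 3). The cause of these shifts was not tested.

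Over the tested regions, same-numbered libraries did not deviate together (correlations from -0.06 to 0.14, over 0.1 in 1 of 4 pairs). These correlations were not computed for gene or promoter sums. With the replicate number as a block, 100 regions, 116 gene sums and 116 promoter sums passed, 0 of members. Without the block the counts were 110, 29 and 14, and the cause of the rise in the sums was not tested. The median of oxidation minus storage regions, 0.13, ran from 0.01 without the filter to 0.23 with limma-voom, and was 0.04 without vehicle replicate 3. Members minus all regions, -0.06, ran from -0.09 without knockout replicate 3 to 0.01 without the filter. The edgeR test was not run, since the values are not whole reads.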
